A study of Xenopus tropicalis with 2 samples.

Results

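The genes described here encode splicing factors, heterogeneous nuclear ribonucleoproteins (hnRNPs) and RNA helicases, as read from a list of thyroid hormone receptor (TR) ChIP peaks in tadpole brain. Members were genes with a symbol beginning in srsf, hnrnp, sf3a, sf3b, snrp, prpf or u2af, or in rbm, lsm, ddx or dhx followed by a digit. The list held a peak for 99 such genes, out of 5285 genes with a peak in all. The reference gene table held 164 genes with these symbols among 15567 named protein-coding genes. All of these are called splicing factor and hnRNP genes below, though not all act in splicing. Of the 164, 16 were sorted as helicases of ribosome assembly and 21 as other helicases. Of 104 entries whose deposited symbol fitted, 6 were left out because their description named another gene, and 1 entry (ddx41, deposited as mep1a) was added by its description.

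There were 2 samples. The TR ChIP sample was chromatin of wild-type tadpoles of Xenopus tropicalis at stage 62 of the Nieuwkoop-Faber (NF) series, the climax of metamorphosis, precipitated with a polyclonal antiserum to Xenopus TRs. The input sample was chromatin of the same genotype, stage and tissue, with no antibody. Both came from the middle part of the brain with the preoptic area, hypothalamus and thalamus, and the labels do not say how many animals were pooled. With 1 library in each group there was no replicate and no test between groups, and a peak list holds no expression values with which to check the tissue label against marker genes.

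Splicing removes introns from pre-mRNA in the spliceosome, which is built anew on each intron from small nuclear ribonucleoproteins (snRNPs), each a small nuclear RNA with its proteins. SR proteins and hnRNPs bind the transcript and steer which splice sites are used, often in opposite directions. DEAD-box (ddx) and DEAH-box (dhx) helicases use ATP to remodel RNA and its bound proteins, in splicing and also in ribosome assembly, translation and RNA decay. TRs are nuclear receptors that bind DNA with and without hormone. Neurons make wide use of alternative splicing.

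Splicing factor and hnRNP genes held a TR ChIP peak in 99 of 164 cases (60.4%, exact 95% binomial interval 52.4 to 67.9%), against 29.9% of all named protein-coding genes (4653 of 15567). All intervals cover counting error only. The set of genes was chosen with earlier results of these data known, so its shares are not independent of them. A peak counted for a gene when it overlapped the gene body or the 10 kb upstream of it. Counting only peaks with their summit within 1 kb of the gene's own transcription start site (TSS), 93 of 164 (56.7%, 48.8 to 64.4%) held one, against 22.0% of all named genes. When every peak counted only for the gene with the closest TSS, the share was 54.9%, against 24.8%. A peak among the 1000 highest folds was found for 27 of 164 (16.5%, 11.1 to 23.0%), against 7.02%. For 336 of the 5285 entries with a peak no symbol could be used, so a peak at one of them would be missed.

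Gene length sets how much sequence can hold a peak, and these genes were on the short side. The median length in the reference table was 12.9 kb for the 164 splicing factor and hnRNP genes and 20.5 kb for all named genes. Among genes of up to 9.85 kb, 39 of 57 members (68.4%, 54.8 to 80.1%) had a peak, against 28.5% of all named genes of that length. Between 9.85 and 20.5 kb the share was 41 of 64 (64.1%, 51.1 to 75.7%), against 29.4%. From 20.5 to 44.8 kb it was 17 of 33 (51.5%, 33.5 to 69.2%), against 27.1%. Only 10 members were longer than that, and 2 of them (20.0%, 2.52 to 55.6%) had a peak, against 34.6%.

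**Figure D1:**
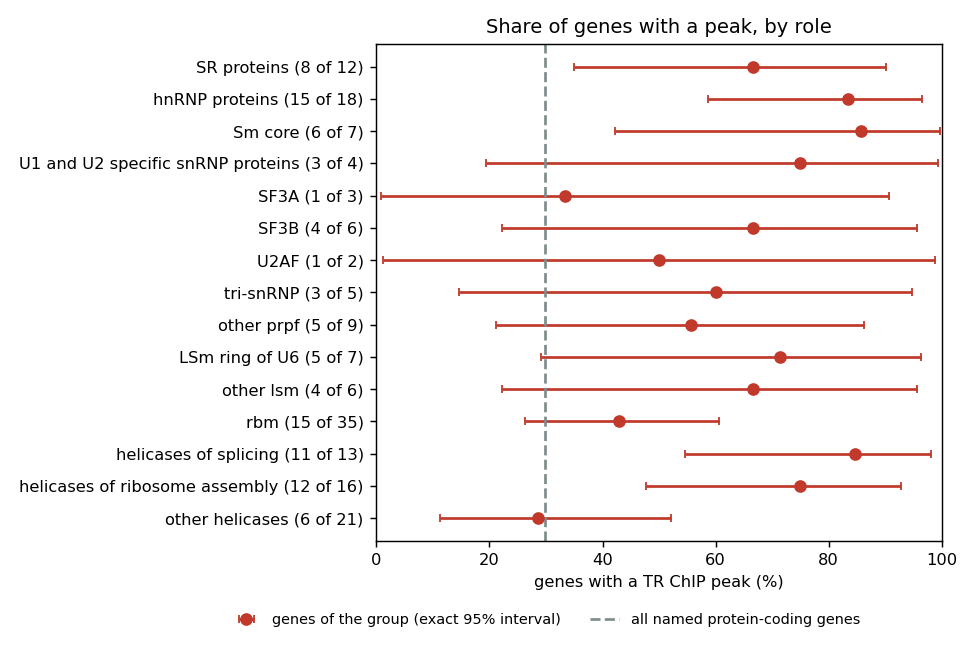
Share of genes with a TR ChIP peak (x axis, percent) for each role (y axis, with the count of genes with a peak). Roles were assigned after the peak list had been seen, and the shares of the helicase groups depend on that sorting. Points are shares, bars exact 95% binomial intervals, and the dashed line marks the 29.9% of all named protein-coding genes. The point of every role except other helicases (28.6%) lies to the right of the line, and the intervals of SR proteins, hnRNP proteins, Sm core and the helicases of splicing and of ribosome assembly lie wholly to its right.

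Most of these peaks sat at promoters. The 99 genes had 114 distinct peaks, of which 106 (93.0%, 86.6 to 96.9%) had the summit within 1 kb of a TSS, against 64.9% (63.6 to 66.2%) of all 5214 peaks in gene regions. These shares were not matched for gene length, which was shorter for these genes (median 12.9 kb against 20.5 kb). The summits tended to lie just inside the gene. Among pairs of a peak and a gene within 1 kb of its TSS, 68 of 100 (68.0%, 57.9 to 77.0%) had the summit at or downstream of the TSS, against 55.0% (53.4 to 56.6%) of 3632 such pairs over all named genes. The median position was 70 bp downstream for splicing factor and hnRNP genes and 25 bp downstream for all named genes. The highest peak of a gene lay between its TSS and 500 bp downstream in 58 of 99 splicing factor and hnRNP genes (58.6%, 48.2 to 68.4%) and in 31.4% of all named genes with a peak. Both shares count genes with no peak near their TSS too, so they also carry the difference in promoter peaks and not position alone.

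**Figure D2:**
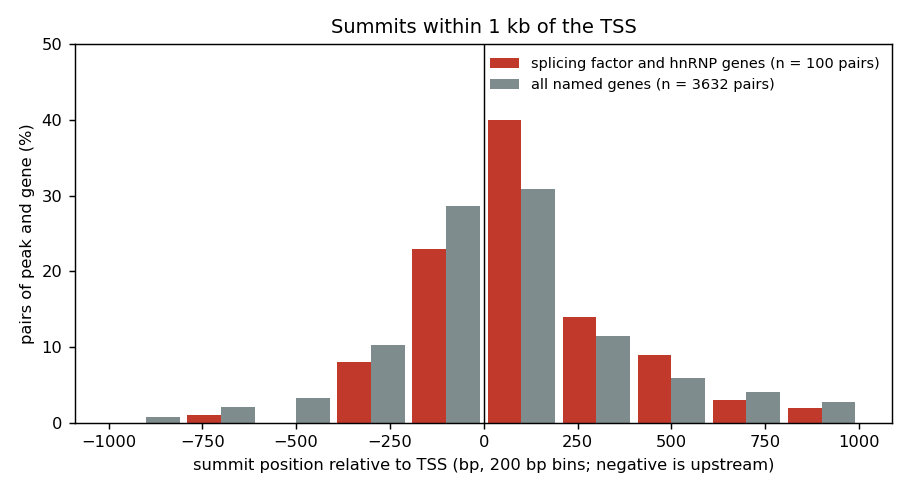
Position of the summit relative to the TSS (x axis, bp, bins of 200 bp, negative is upstream) for pairs of a peak and a gene within 1 kb, as a percentage of pairs (y axis), for splicing factor and hnRNP genes (red, 100 pairs) and all named genes (grey, 3632 pairs). The bin from the TSS to 200 bp downstream holds 40 of the 100 red pairs and 30.8% of the grey pairs.

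The 6 genes with no summit within 1 kb of their own TSS were of several kinds. Summits of ddx20 and rbm26 missed that limit narrowly, at 1034 and 1103 bp downstream. The lsm5 summit lay 3.20 kb upstream of the deposited start, and its peak was also paired with avl9. The deposited lsm5 gene was 7.89 kb long, against 16.4 kb in the reference table. The remaining genes, srsf1, snrpd3 and ddx49, had summits 198, 87.6 and 31.4 kb downstream of the deposited start. For srsf1 the deposited gene was 204 kb long against 6.10 kb in the reference table, and the summit lay 5.61 kb from the deposited gene end. For snrpd3 these lengths were 93.2 and 6.08 kb, with the summit 5.60 kb from the deposited end. The peak of snrpd3 was also paired with gucd1, and that of ddx49 with cope.

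Heights differed little from those of other genes. The median of the highest fold per gene was 4.47 (quartiles 3.68 to 5.70) for the 99 splicing factor and hnRNP genes and 4.37 (3.58 to 5.49) for 4653 named genes with a peak, a ratio of 1.02. Among the 3151 peaks of higher fold these medians were 5.15 and 5.24, so the small difference did not keep its direction. The fold is the authors' peak caller's value of ChIP over background at the summit, on a linear scale, and the fragment numbers were solved from that fold and its p-value. Both fragment numbers were higher at these genes. At the highest summit of a splicing factor or hnRNP gene the median was 33 ChIP fragments (range 16 to 99) over an expected background of 6.76, and over all named genes the medians were 28 ChIP fragments over 5.70. The median −log10 adjusted p-value of the highest peak, which grows with fragment number as well as fold, was therefore 9.89, against 7.39 over all named genes. Peaks were also wider, with a median of 421 bp (range 211 to 1449 bp), against 342 bp for all peaks in gene regions. Per distinct peak, the median fold was 4.34, against 4.08. These comparisons take peaks at all positions. Over distinct peaks within 1 kb of a TSS, the medians were 32.5 ChIP fragments against 28 for all named genes. Their background medians were 6.69 against 6.14 and their median folds 4.40 against 4.15. No width is given for such peaks alone.

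**Figure D3:**
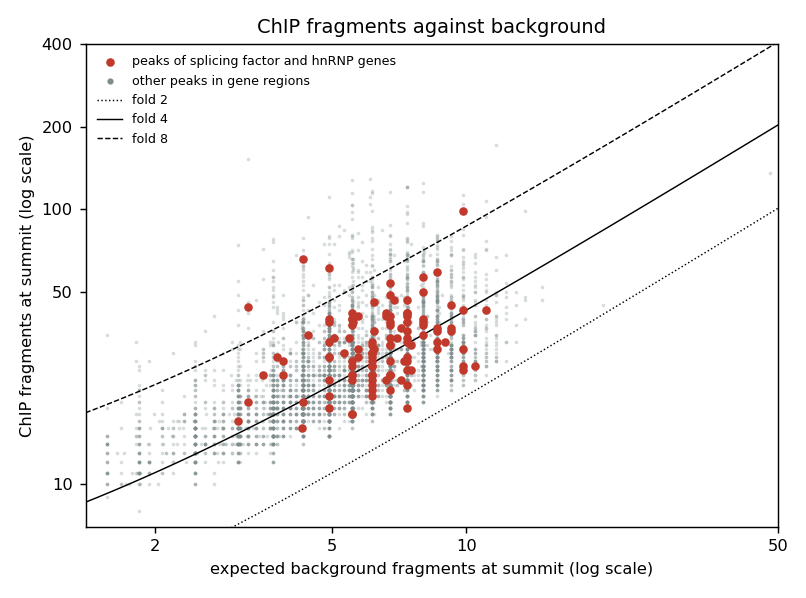
ChIP fragments at the summit (y axis, log scale) against the expected background fragments (x axis, log scale) for 114 peaks of splicing factor and hnRNP genes (red) and the other peaks in gene regions (grey). Lines mark folds of 2, 4 and 8; the red points have a median of 32 ChIP fragments and range from 16 to 99, and 4 of them lie above the line of fold 8.

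The order of genes by fold was headed by 4 genes. First came snrpb2, a protein of the U2 snRNP, with 66 ChIP fragments over a background of 4.30 at a summit 68 bp upstream of the TSS on chromosome 5 (31572877 to 31573340), a fold of 12.6 (exact 95% Poisson interval 9.82 to 16.0). Such intervals count the ChIP fragments alone, not the background, and the peaks were picked as the highest of a gene. Next was rbm18, 32 bp upstream of the TSS on chromosome 8 (16309914 to 16310269), with 44 fragments over 3.24 and a fold of 10.6 (7.77 to 14.2). That peak also lay at the start of mrrf, a mitochondrial ribosome recycling factor. It was followed by ddx5, an RNA helicase also known as a coactivator of nuclear receptors, with 61 fragments over 4.93, 209 bp downstream of its TSS on an unplaced scaffold, with a fold of 10.5 (8.04 to 13.4). The largest fragment number was at prpf38a, with 99 over 9.83, 68 bp downstream of the TSS on chromosome 4 (86511965 to 86512514), where the fold was 9.23 (7.52 to 11.2). Since all 4 intervals overlap, the order among them is not settled. The next gene, rbm15b, had a fold of 7.09 (5.36 to 9.21), and at the low end rbm24 had 2.39.

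**Figure D4:**
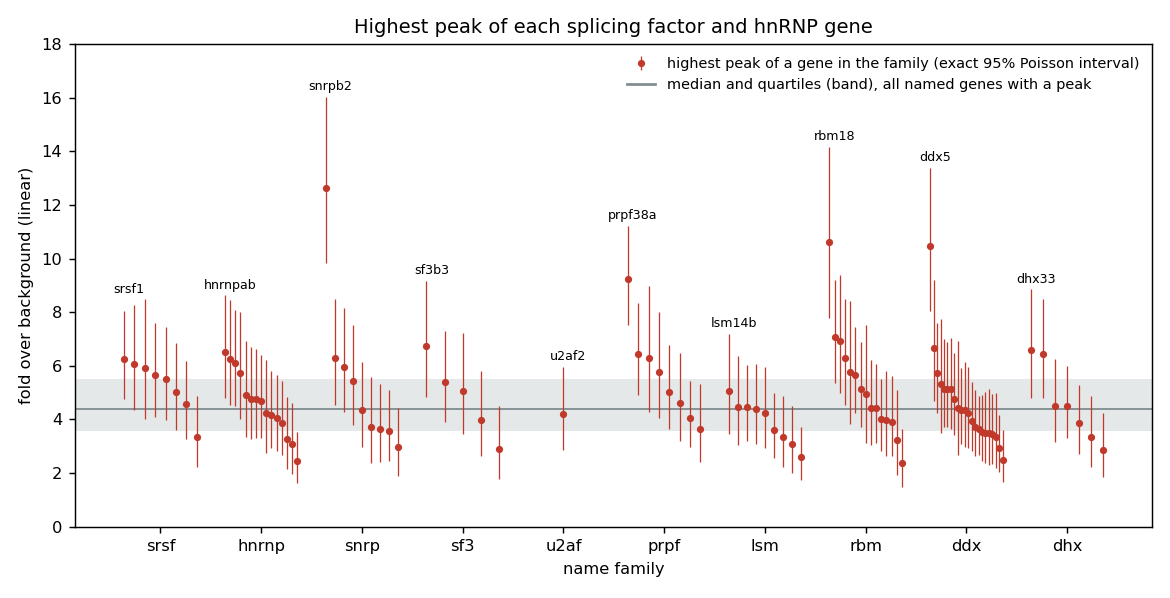
Fold over background (y axis, linear) of the highest peak of each of 99 genes, by name family (x axis). Points are folds with exact 95% Poisson intervals, the highest gene of each family is named, and the grey line and band give the median (4.37) and quartiles (3.58 to 5.49) of all named genes with a peak. Most points lie in or near the band, and snrpb2, rbm18, ddx5 and prpf38a stand above it.

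SR proteins carry an RNA-binding domain and a tail rich in arginine and serine, and promote the use of exons to which they bind. Of 12 srsf genes, 8 had a peak (66.7%, 34.9 to 90.1%), against 29.9% of all named genes, with a median highest fold of 5.58. The highest was srsf1, with 59 ChIP fragments over a background of 8.60 on chromosome 2 (50289537 to 50290326), a fold of 6.25 (4.78 to 8.03), at the position far from its deposited start given above. At srsf6 there were 39 fragments over 5.57, 314 bp downstream of the TSS on chromosome 10 (31463350 to 31463809), a fold of 6.08 (4.37 to 8.26). At srsf12 there were 28 over 3.89, 92 bp downstream on chromosome 5 (86189243 to 86189880), a fold of 5.93 (4.01 to 8.48). These 3 intervals overlap almost wholly. The other folds were 5.65 at srsf3, 5.52 at srsf2, 5.03 at srsf7, 4.56 at srsf5 and 3.35 at srsf11, and those of srsf2, srsf7 and srsf11 came from peaks also paired with other genes. No peak was listed for srsf4, srsf5a, srsf9 or srsf10.

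The hnRNPs coat nascent transcripts and act in splicing, export and stability of mRNA, and many of them repress exons. Of 18 hnrnp genes, 15 had a peak (83.3%, 58.6 to 96.4%), against 29.9% of all named genes. Counting only peaks within 1 kb of the gene's own TSS, the share was again 15 of 18 (83.3%), against 22.0% of all named genes. At hnrnpab there were 46 ChIP fragments over 6.22, 182 bp downstream of the TSS on chromosome 3 (21895246 to 21896290), a fold of 6.51 (4.80 to 8.63). At hnrnpa2b1 there were 41 over 5.70, 353 bp downstream on chromosome 6 (33455933 to 33456735), a fold of 6.26 (4.54 to 8.45). At hnrnpa1 there were 47 over 6.87, 241 bp downstream on chromosome 2 (142410590 to 142411288), a fold of 6.10 (4.51 to 8.07). That peak also lay within 1 kb of the start of cbx5, a heterochromatin protein gene on the other strand. The intervals of these 3 genes overlap each other and those of hnrnph3 (5.75, 4.01 to 8.0) and hnrnpul2 (4.91, 3.36 to 6.94), so the order among the 5 is not settled. The remaining A-type genes had folds of 4.77 (hnrnpa3) and 3.08 (hnrnpa0).

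Other hnRNP genes lay mostly near the median of all genes. Besides hnrnph3 and hnrnpul2, the folds were 4.76 at hnrnpm, 4.67 at hnrnpl, which binds CA repeats, and 4.23 at hnrnpk, which binds runs of C. They were 4.18 at hnrnpd, a regulator of the decay of AU-rich mRNAs, 4.06 at hnrnpu, a scaffold protein of the nucleus, and 3.87 at hnrnpdl. The lowest were 3.28 at hnrnph1 and 2.45 at hnrnpc, which binds runs of U. The neighbours hnrnpd and hnrnpdl on chromosome 1 shared 1 peak of fold 3.42, 1.06 kb into hnrnpdl and 9.95 kb upstream of hnrnpd, and it was the only peak paired with 2 members. No peak was listed for hnrnpr, hnrnpll or hnrnpul1.

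The Sm proteins form the ring around the RNA of most spliceosomal snRNPs. Of the 7 Sm genes, 6 had a peak (85.7%, 42.1 to 99.6%), against 29.9% of all named genes, and snrpd2 had none listed. At snrpg there were 40 ChIP fragments over 5.53, 48 bp downstream of the TSS on chromosome 3 (112116820 to 112117487), a fold of 6.28 (4.53 to 8.49). At snrpe there were 38 over 5.53, 38 bp downstream on chromosome 4 (67258125 to 67258542), a fold of 5.97 (4.27 to 8.14). The others were lower, at 3.71 (snrpf), 3.64 (snrpd1), 3.58 (snrpd3) and 2.96 (snrpb). Peaks of snrpb, snrpd3, snrpf and snrpg were also paired with other entries. Among proteins particular to one snRNP, the U1 genes snrpc and snrpa had folds of 5.43 and 4.34, and of the U2 genes snrpb2 headed the whole order while snrpa1 had no listed peak.

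SF3A and SF3B are subcomplexes of the U2 snRNP that hold it at the branch point, and U2AF recognises the end of the intron. SF3B had a peak at 4 of 6 genes (66.7%, 22.3 to 95.7%) and SF3A at 1 of 3 (33.3%, 0.840 to 90.6%), and both intervals include the 29.9% of all named genes. At sf3b3 there were 39 ChIP fragments over 4.93, 161 bp downstream of the TSS on chromosome 4 (26995748 to 26996322), a fold of 6.75 (4.85 to 9.16). At sf3b2 there were 41 over 6.76, 32 bp downstream on chromosome 4 (42731428 to 42731768), a fold of 5.41 (3.92 to 7.30). At sf3b4 there were 29 over 4.92, at 1 bp from the TSS on chromosome 8 (107599220 to 107599682), a fold of 5.07 (3.45 to 7.21). The fold was 3.98 at sf3b5 and 2.91 at sf3a3, and none was listed for sf3b1, sf3b6, sf3a1 or sf3a2. In the U2AF pair, the large subunit gene u2af2 had 29 fragments over 6.14, 112 bp downstream on chromosome 7 (96596639 to 96596854), a fold of 4.20 (2.86 to 5.97), and u2af1 had no listed peak.

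The prpf genes are named after yeast pre-mRNA processing mutants. Of the 5 that encode proteins of the U4/U6.U5 tri-snRNP, which brings the catalytic RNAs to the intron, 3 had a peak (with an interval of the share, 14.7 to 94.7%, that includes the 29.9% of all named genes), and prpf4 and prpf6 had none listed. At prpf31 there were 57 ChIP fragments over 7.99, 67 bp upstream of the TSS on chromosome 7 (95692949 to 95693548), a fold of 6.45 (4.91 to 8.33). At prpf3 there were 29 over 3.76, 12 bp downstream on chromosome 8 (107069310 to 107069628), a fold of 6.30 (4.29 to 8.96). The fold at prpf8, the large protein at the heart of the spliceosome, was 4.06. Beside prpf38a, 4 of the remaining prpf genes had a peak, with folds of 5.78 at prpf18, a factor of the second catalytic step, 5.02 at prpf39.2, 4.62 at prpf39.1 and 3.64 at the kinase gene prpf4b. All of these except prpf39.2 shared their peak with another gene, and so did prpf38a, whose peak was also paired with orc1. No peak was listed for prpf19, prpf38b or prpf40b.

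LSm proteins form Sm-like rings. The ring of LSm2 to LSm8 binds U6 RNA in the nucleus, and LSm1 replaces LSm8 in a ring that promotes mRNA decay in the cytoplasm. Of the 7 genes of the U6 ring, 5 had a peak (71.4%, 29.0 to 96.3%, an interval that includes the 29.9% of all named genes), and lsm2 and lsm3 had none listed. At lsm7 there were 39 ChIP fragments over 7.99, 135 bp upstream of the TSS on chromosome 1 (73878254 to 73879264), a fold of 4.45 (3.20 to 6.04). The folds were 4.25 at lsm8, 3.62 at lsm6, 3.35 at lsm5 and 2.59 at lsm4, and the median of the ring was 3.62, against 4.47 for all 99 genes. Outside it, lsm14b had 29 fragments over 4.93 at 4.38 kb upstream on chromosome 10 (1118080 to 1118375), and its fold was 5.06 (3.45 to 7.20). Another peak, of fold 4.06, lay 180 bp upstream, and both were also paired with taf4. At lsm12 there were 29 over 5.70, 50 bp downstream on chromosome 10 (14061711 to 14062161), a fold of 4.47 (3.05 to 6.36). The decay factor gene lsm1 had a fold of 4.37 and lsm14a, a P-body gene, 3.07. None was listed for lsm10 or lsm11, which belong to the U7 snRNP of histone mRNA processing.

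The rbm genes are related by an RNA recognition motif and not by a shared task. Of 35, 15 had a peak (42.9%, 26.3 to 60.6%), an interval that includes the 29.9% of all named genes. After rbm18, rbm15b, a subunit of the complex that writes m6A on mRNA, had 54 ChIP fragments over 6.76, 92 bp downstream of the TSS on chromosome 4 (116907382 to 116908019). Its paralogue rbm15 had a fold of 3.98. At rbm34, related to a yeast ribosome assembly factor, there were 40 over 4.92, 8 bp upstream on chromosome 10 (3794402 to 3794852), a fold of 6.93 (5.00 to 9.38). Further folds among the 15 rbm genes with a peak were 6.28 at rbm25, 5.78 at rbm42, 4.43 at rbm39, 4.01 at rbm4b and 3.92 at rbm5. The remaining folds were 5.67 at rbm28, 4.95 at rbm26 and 4.42 at rbm45. They were 5.14 at rbm7, part of a nuclear RNA exosome targeting complex, 3.22 at the paraspeckle gene rbm14 and the 2.39 of rbm24, which is best known from muscle. Every peak of rbm25, rbm4b and rbm7 was also paired with another gene. No peak was listed for rbm6, rbm8a, rbm11, rbm12, rbm12b.1, rbm12b.2, rbm12b.3, rbm17, rbm19, rbm20, rbm22, rbm23, rbm27, rbm33, rbm38, rbm43, rbm44, rbm46, rbm47 or rbm48. The rbm genes, with or without a peak, were not fully sorted by task, so no share is given for those linked to splicing.

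Helicases were counted by task. Roles were assigned from general knowledge after the peak list had been seen. Some helicases could be placed in another group, for example those of mRNA export or of the mitochondrial ribosome. The shares by task therefore depend on the sorting and are not independent of the peaks. Helicases of splicing held a peak in 11 of 13 cases (84.6%, 54.6 to 98.1%), those of ribosome assembly in 12 of 16 (75.0%, 47.6 to 92.7%) and the others in 6 of 21 (28.6%, 11.3 to 52.2%), beside the 29.9% of all named genes. Among the helicases of splicing, ddx5 (10.5, 8.04 to 13.4) was above its paralogue ddx17 (3.72, 2.65 to 5.09), and their intervals did not overlap. ChIP fragments were 61 over a background of 4.93 at ddx5 and 37 over 9.22 at ddx17. The intervals leave the background out, ddx5 was the highest ddx gene, and the difference was not tested. The folds were 5.32 at ddx39b and 3.51 at ddx39a, which load export factors on mRNA, 5.12 at ddx41 and 4.25 at ddx42. The DEAH-box helicase dhx38, which drives the second catalytic step, had 34 ChIP fragments over 6.76, 47 bp upstream of the TSS on chromosome 4 (63246421 to 63246747), a fold of 4.51 (3.16 to 6.25). The fold was 4.50 at dhx16, which activates the spliceosome, 3.35 at dhx15, which takes it apart, 2.87 at dhx35 and 2.49 at ddx23. No peak was listed for ddx46 or dhx8.

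Helicases of ribosome assembly ranged from 2.95 to 6.59. At dhx33 there were 42 ChIP fragments over 5.53, 779 bp downstream of the TSS on chromosome 2 (98093353 to 98093617), a fold of 6.59 (4.79 to 8.85). At ddx31 there were 47 over 7.37, 308 bp upstream on chromosome 8 (7004905 to 7005315), a fold of 5.73 (4.24 to 7.58). That peak also lay within 1 kb of the start of gtf3c4, a subunit of the RNA polymerase III factor TFIIIC. The nucleolar helicase gene ddx21 had a fold of 4.34, as did ddx24. The rest were 5.14 at ddx52, 4.78 at ddx51, 4.42 at ddx47, 3.65 at ddx49, 3.5 at ddx55, 3.46 at ddx28, a helicase of the mitochondrial ribosome, 3.36 at ddx54 and 2.95 at ddx10. None was listed for ddx18, ddx27, ddx56 or dhx37.

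Among the other helicases, ddx20, a component of the SMN complex that assembles snRNPs, had 35 ChIP fragments over 4.41 on chromosome 2 (72865498 to 72865944), a fold of 6.66 (4.69 to 9.19). The folds were 5.16 at ddx6, a regulator of mRNA decay and storage, 3.96 at ddx3x, a helicase of translation initiation, 3.85 at dhx9 and 3.54 at the DNA helicase gene ddx11. Germline helicase genes such as ddx4 and ddx25, and the sensors of viral RNA ddx58 and dhx58, had no listed peak. The same held for ddx1, ddx19b, ddx43, ddx59, ddx60, dhx30, dhx32, dhx34, dhx36, dhx40 and dhx57. The entry deposited as dhx34 was described as atp7a, and the one deposited as ddx46 as ogfr, so neither counted.

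Most of these genes had a single peak. Of the 99, 87 had 1 peak, 8 had 2 and 4 had 3. Thus 12 of 164 (7.32%, 3.84 to 12.4%) had 2 or more, against 5.33% of all named genes, and 12 of the 99 with a peak (12.1%, 6.42 to 20.2%), against 17.8%. The hnRNP family, with 18 genes in the reference table, held 6 of the 12, namely hnrnpd, hnrnpdl, hnrnpk, hnrnpl, hnrnpu and hnrnpul2. The lower peak of hnrnpd and that of hnrnpdl were the same shared peak, counted for both genes. The other genes with 2 or more peaks were srsf7, sf3b2, rbm25, lsm14b, ddx39a and dhx29.

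The 4 genes with 3 peaks had them in different places. At srsf7 all 3 lay around the TSS on chromosome 5, with 38 ChIP fragments over 6.76 at 62 bp downstream (51831765 to 51832186), a fold of 5.03 (3.59 to 6.85). It was flanked by peaks of 3.22 at 709 bp upstream and 2.91 at 572 bp downstream. At hnrnpk the highest peak was the outermost, with 24 over 4.92 at 1.04 kb upstream on chromosome 1 (122036273 to 122036639), a fold of 4.23 (2.77 to 6.21), beside 3.17 at 326 bp upstream and 3.74 at 471 bp downstream. At hnrnpu there were 33 over 7.37 at 78 bp downstream on chromosome 5 (54659623 to 54660047), a fold of 4.06 (2.83 to 5.65), with 3.22 at 732 bp downstream and 3.83 at 7.34 kb upstream. At dhx29, a helicase of translation initiation, there were 49 over 6.76 at 163 bp upstream on chromosome 1 (178749970 to 178750374), a fold of 6.44 (4.80 to 8.48), with 3.96 and 4.44 at 12.3 and 13.9 kb into the gene. Within each gene the intervals of the 3 peaks overlapped.

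**Figure D5:**
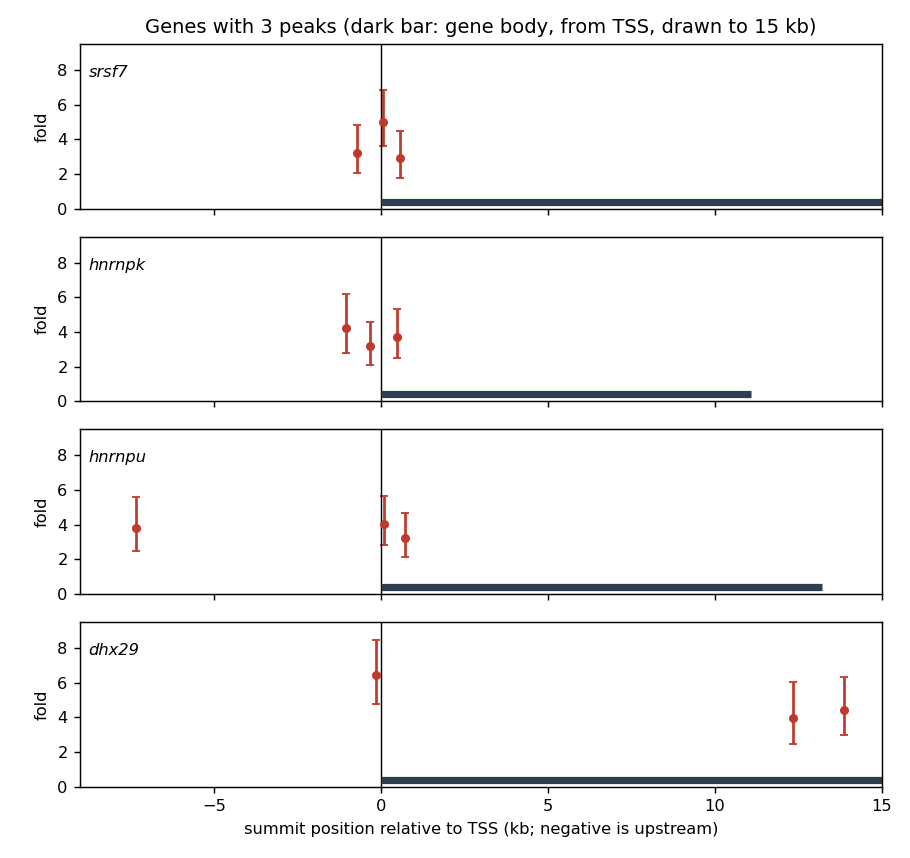
Fold over background (y axis, linear, exact 95% Poisson intervals) against summit position relative to the TSS (x axis, kb, negative is upstream) for the 4 genes with 3 peaks. The peaks of srsf7 and hnrnpk stay within about 1 kb of the TSS, hnrnpu has one 7.34 kb upstream, and dhx29 has 2 inside the gene body at 12.3 and 13.9 kb.

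Many of these promoters were shared. Of 100 peaks within 1 kb of the TSS of a splicing factor or hnRNP gene, 25 (25.0%, 16.9 to 34.7%) also lay within 1 kb of a TSS on the other strand, against 13.4% (12.2 to 14.6%) of 3232 such peaks over all named genes. These 25 peaks belonged to 22 genes. Several partners, picked for naming after the list had been seen, also act on RNA or in gene expression. At srsf7 the partner was gemin6, a subunit of the SMN complex that assembles snRNPs, and at dhx29 it was mtrex, the helicase of the nuclear RNA exosome. At ddx28 it was dus2, a tRNA-modifying enzyme, at ddx31 gtf3c4, at prpf18 aimp2, a scaffold of tRNA synthetases, and at rbm18 mrrf. Others have unrelated tasks, such as the pyrimidine synthesis gene dhodh at dhx38, the Golgi gene cog4 at sf3b3, and the DNA repair gene rmi1 at hnrnpk. Counting partners at any distance, 38 of 99 genes (38.4%, 28.8 to 48.7%) shared every one of their peaks with another gene, against 38.9% over all named genes with a peak. They were srsf2, srsf7, srsf11, hnrnpa1, hnrnpdl, hnrnph1, hnrnpk, hnrnpul2, sf3a3, sf3b2, sf3b3, snrpa, snrpb, snrpc, snrpd3, snrpf and snrpg. The rest were prpf4b, prpf18, prpf31, prpf38a, prpf39.1, lsm1, lsm5, lsm7, lsm12, lsm14b, rbm4b, rbm7, rbm18, rbm25, ddx11, ddx28, ddx31, ddx39a, ddx49, ddx54 and dhx38. At all of these the data do not tell which gene a peak belongs to.

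Other genes of splicing and RNA binding, from a list of 172 symbols outside the name rule, were counted in the same way. That list was written with earlier results of these data known, so its share is not independent of them. The reference table held 160 of the listed genes, and 98 (61.3%, 53.2 to 68.8%) had a peak, against 29.9% of all named genes. Their median highest fold was 4.81. By role, a peak was found at 12 of 26 genes of the Prp19 complex and the activated spliceosome and 8 of 12 grouped with the tri-snRNP. The counts were 6 of 12 for branch point and intron end recognition and 6 of 9 for the U1 partners. The intervals of the Prp19 group (26.6 to 66.6%) and of branch point recognition (21.1 to 78.9%) include the 29.9% of all named genes. That of the U1 partners (29.9 to 92.5%) begins about there. A peak was also found at 13 of 22 SR-related proteins and SR kinases and 12 of 17 genes of the exon junction complex and mRNA export. For snRNP assembly the count was 9 of 14, and for other regulators 32 of 48. The highest folds were at the spliceosome genes cwc15 (12.8, 10.1 to 16.1) and xab2 (11.5, 8.83 to 14.8), with summits 51 and 49 bp upstream of the TSS. Next were zranb2 (8.45), the Sm assembly factor clns1a (8.28), cd2bp2 (8.22), grouped with the tri-snRNP, and rnps1 (7.99), grouped with the SR-related proteins. They were followed by pcbp3 (7.90), the cyclophilin gene ppie (7.73), the U1 partner luc7l2 (7.52) and smn1 (7.17), which encodes the core of the SMN complex. The peaks of cwc15, cd2bp2 and luc7l2 were also paired with another gene, so the data do not tell which gene they belong to. Every gene of this ranking except luc7l2, at 4.17 kb upstream, had the summit within 1 kb of the TSS.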

How the data were processed

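The deposited file is a list of 7848 pairs of a peak and a gene, for 6302 peaks of the TR ChIP library. MACS2 2.2.6 and BWA 0.7.17 were among the tools per the submitters' processing notes, which give no roles. The build, the peak threshold and library totals are not given in the sources used here. Coordinates were taken as deposited. The authors deposited a linear fold ratio, the −log10 p-value and its adjusted form, and a score, which was not used. ChIP fragments and background were solved from fold, as (fragments + 1) / (background + 1), and p, as the upper Poisson tail, for all 6302 peaks (misfit in −log10 p under 0.0001). The solver was tested on simulated data.

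Symbols came from the NCBI number in the description where it had one, otherwise from the deposited name if the description came from RFAM, UniProt, miRBase, Xenbase or RefSeq mRNA. All 99 members matched the reference table (UCB_Xtro_10.0), which gave names and lengths. Summits stood for peaks, and gene starts and ends came from the file, with no exons. Intervals are exact, binomial for shares and Poisson for fragments. Members are named except for a gene not reported here, and detail is given for the 3 highest folds of each name family and for genes with 3 or more peaks. The members, lists and roles were chosen with earlier results of these data known. Alternatives covered peak threshold, pairing rule, overlap, names and TSS window. Python 3.11.15, pandas 2.3.3, SciPy 1.17.1 and matplotlib 3.10.9 were used.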

Additional observations from a re-analysis of the deposited data

How the results depend on the processing

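Fewer peaks cover fewer genes. With the 3151 peaks of higher fold, 64 genes had a peak, on 67 peaks, 23 genes had only shared peaks and the median highest fold was 5.15. With the 1000 highest folds these were 27 genes, 27 peaks, 10 genes and 6.28, and 32 genes of the other splicing list had a peak, against 98 with all peaks. The share of all named genes was 17.6% with those 3151 peaks and 7.02% with the 1000 highest, against 39.0% and 16.5% of splicing factor and hnRNP genes. Their median fold was below that of all genes in both cases, at 5.15 against 5.24 and 6.28 against 6.79, so the small difference in height turned round. The share of these genes' peaks near a TSS was 85.1% with a window of 500 bp, a narrower window, and 91.7 to 96.5% under the other alternatives. With the 3151 peaks of higher fold it was 94.0%, against 67.7% of all peaks in gene regions. With the 1000 highest folds it was 92.6%, against 78.0%, a smaller gap than 93.0% against 64.9% with all peaks. No share over all peaks is given for the other windows. When every peak counted only for the gene with the closest TSS, 90 genes held a peak, and with names as deposited 100. No paired analysis was possible because there was 1 sample in each group. Depth per library is unknown, and a peak of these genes rests on a median of 32 ChIP fragments from 1 library, so a gene without a listed peak may hold binding below detection.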

Other observations

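Genes spelled snrnp, which encode further snRNP proteins, fall outside the name rule, and were looked at after their values had been seen. Of 7 in the reference table, 4 had a peak, beside 29.9% of all named genes, and snrnp27, snrnp35 and snrnp48 had none listed. The U1 gene snrnp70 had 49 ChIP fragments over a background of 3.07, 117 bp past the TSS on chromosome 7 (105786551 to 105787147), a fold of 12.3 (9.15 to 16.2), close to that of snrpb2. The U5 helicase gene snrnp200 had 43 over 3.07 at 4.34 kb upstream on chromosome 3 (109125386 to 109125794), a fold of 10.8 (7.89 to 14.5), and a second of 3.37 at 427 bp upstream. The minor spliceosome gene snrnp25 had a fold of 6.74 and the U5 gene snrnp40 had 3.56. The peaks of snrnp200, snrnp25 and snrnp40 were each also paired with another gene, and that of snrnp70 was not.

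Deposited gene models were more than 3 times as long as in the reference table for 6 of the 99 genes, while the median ratio of lengths over the 99 was 0.996. Besides srsf1 and snrpd3 these were srsf3 (164 kb deposited, 9.79 kb in the reference), lsm4 (151 and 15.5 kb), srsf7 (46.8 and 6.79 kb) and rbm7 (32.4 and 7.28 kb). In those 4 genes the highest peak lay within 200 bp of the deposited TSS.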
